A study of Mus musculus with 82 samples.

Results

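The tumours labelled 2225 and 9263 are 2 of 13 mouse mammary tumour models profiled by mRNA sequencing, and both were picked out here as basal tumours with active Wnt genes. Libraries were taken by the model name at the start of each label, which gave 10 libraries of 2225 and 7 of 9263, 17 of 82 in all. Both groups carry the strain label BALB/c, and all tumours of the study were untreated. The labels give no genotype, transgene, sex, age or passage for either model. RNA came from cryopreserved, homogenised mammary tumours, was purified with the RNeasy Mini kit, had its quality read on a Bioanalyzer and went into TruSeq mRNA libraries. The labels speak of individual tumours and biological replicates, but nothing says that the libraries of a model came from separate mice. P-values therefore measure the spread among libraries within models, estimated over all 82 libraries, and this spread may be technical. The other 11 models (65 libraries) give reference levels and enter the estimate of spread with more libraries than the 17 of this pair.

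Counts per library summed to between 17.2 and 97.6 M in 2225 and between 23.4 and 116.4 M in 9263, with 20981 to 23952 and 20927 to 23712 genes detected. The 10 libraries of 2225 were alike, with Pearson correlations of log2 CPM between 0.967 and 0.994 over 15442 genes. The 7 libraries of 9263 fell apart by the number in their label. Libraries CP-3552, CP-3553 and CP-3554 correlated with each other at 0.976 to 0.982 and with the other 4 at 0.878 to 0.952, while the other 4 correlated among themselves at 0.948 to 0.990. Libraries CP-3552 to CP-3554 were also the shallowest of 9263 (23.4 to 35.4 M). Pairs of 1 library from each model correlated at 0.835 to 0.899. Results that rest on libraries CP-3552 to CP-3554 are given with and without them below. No pair of libraries of 1 model agreed within counting noise (the lowest chi-square per gene was 18.5), so none was a copy of another in the files. Separate preparations of 1 tumour would differ by more than counting noise too, and whether any share a tumour was not tested.

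In the canonical Wnt pathway, secreted Wnt proteins bind Frizzled receptors with the co-receptors Lrp5 and Lrp6, which stops the destruction complex of Axin and Apc from degrading beta-catenin, the product of Ctnnb1. Beta-catenin then enters the nucleus and activates target genes with the Tcf and Lef factors, among them Axin2, Nkd1 and Notum, which feed back and restrain the signal. R-spondins raise the amount of Frizzled on the cell surface through Lgr receptors and the ubiquitin ligases Rnf43 and Znrf3. In the mammary gland and the skin, Wnt signals are known to sustain basal stem cells and, in the skin, the growth of hair follicles.

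The name of the pair was first set against marker levels over the 13 models, as a description with no test. Axin2 ranked 1 of 13 in 9263 (mean 124 ± 19.7 CPM, SD, n = 7) and 2 in 2225 (59 ± 8.07 CPM, n = 10), and Nkd1 ranked 1 in 2225 and 2 in 9263. CPM are counts scaled by library size, with no division by gene length, so a level can be compared between libraries but not between genes. Notum, Sp5 and Tcf7 ranked 1, 1 and 1 in 9263 and 5, 4 and 2 in 2225. Lef1 went against the name, at rank 8 in 9263 and 11 in 2225. Among basal markers, Krt14 and Krt17 ranked 1 in 9263 and 2 in 2225, and Krt5 ranked 3 and 4. The luminal keratin Krt8 ranked 13 of 13 in 9263 but 3 in 2225. In bulk tissue, fewer cells of a type and less RNA per cell cannot be told apart, here and below.

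Across all genes, 11679 of 22847 tested genes passed an adjusted p of 0.05, 5319 (23.3%) higher in 2225 and 6360 (27.8%) higher in 9263. With a difference of at least 2-fold besides, 2678 genes (11.7%) were higher in 2225 and 3419 (15%) in 9263. The CPM of the 17 libraries did not overlap between the models for 2038 genes (8.92%) higher in 2225 and 2083 (9.12%) higher in 9263. The median log2 difference was -0.05. Counts of list members called below are to be read beside these shares. Every log2 difference below is 2225 minus 9263 with its standard error and the adjusted p of edgeR's quasi-likelihood test, so a positive value means higher in 2225.

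The 6 lists of Wnt genes hold 105 genes, of which 102 were tested. Of these, 24 (23.5%) were higher in 2225 and 37 (36.3%) in 9263, beside 23.3% and 27.8% of all tested genes, so the share higher in 2225 was that of the background. By at least 2-fold 15 and 27 were higher. Without libraries CP-3552 to CP-3554 of 9263, 28 were higher in 2225 and 31 in 9263. Their median log2 difference was -0.20, beside -0.05 over all genes. 2225 had the higher levels of Wnt6, Wnt5b, Rspo4 and several Frizzleds, and 9263 the higher levels of several secreted antagonists, some targets and Ctnnb1.

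Tcf and Lef factors bind a short DNA motif, here spelled ATCAAAG, with the reverse complement CTTTGAT. It was searched on both strands in the 250 bases before RefSeq gene starts (GRCm38.p6). Of 32851 such windows, 1053 (3.21%) hold it. Among the 102 tested Wnt genes, 67 matched the sequence table, with 87 windows. Of these windows 5 hold the motif, and they belong to 5 genes (Sp5, Tnfrsf19, Wnt5b, Edar and Wnt11). The windows of the 3 that differed between the models are printed because they set a gene higher in 2225 (Wnt5b) beside a pair higher in 9263 (Sp5 and Tnfrsf19). The Sp5 window is chr2:70474673-70474922 on the plus strand, the Tnfrsf19 window chr14:61037988-61038237 and the Wnt5b window chr6:119449387-119449636, both on the minus strand. They are read 5′ to 3′ in the direction of the gene, with the motif in capitals.
Sp5: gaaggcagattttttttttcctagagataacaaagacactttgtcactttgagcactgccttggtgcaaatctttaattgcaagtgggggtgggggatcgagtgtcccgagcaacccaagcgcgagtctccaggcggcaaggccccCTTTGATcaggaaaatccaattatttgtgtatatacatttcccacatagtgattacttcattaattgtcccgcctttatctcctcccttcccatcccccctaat
Tnfrsf19: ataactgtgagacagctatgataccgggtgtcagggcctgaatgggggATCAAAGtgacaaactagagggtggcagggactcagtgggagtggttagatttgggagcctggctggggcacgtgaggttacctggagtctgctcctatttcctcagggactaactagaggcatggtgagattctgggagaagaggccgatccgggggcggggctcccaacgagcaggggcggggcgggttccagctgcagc
Wnt5b: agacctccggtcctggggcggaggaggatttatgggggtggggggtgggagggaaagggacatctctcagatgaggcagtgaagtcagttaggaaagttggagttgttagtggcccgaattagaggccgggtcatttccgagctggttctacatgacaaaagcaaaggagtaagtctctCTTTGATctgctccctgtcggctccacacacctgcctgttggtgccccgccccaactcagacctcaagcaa
The motif begins 104 bases before the start in Sp5, 202 in Tnfrsf19 and 71 in Wnt5b. A match is a run of letters, not a measured binding site, and genes on both sides of the comparison carry it.

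Of the ligands, 2225 held more Wnt6 and Wnt5b, and 9263 more Wnt5a and Wnt10b. The call of Wnt9a as higher in 9263 rested on libraries CP-3552 to CP-3554. Of 18 tested ligands, 2 were higher in 2225 and 5 in 9263, beside 23.3% and 27.8% of all tested genes. Wnt6 (chr1:74771892-74785322), a canonical ligand, had a lowest, median and highest level of 181, 297 and 410 CPM in 2225 and 15.8, 72.6 and 118 CPM in 9263, with no overlap (log2 difference 2.07 ± 0.43, adjusted p = 3.32e-05). Both models stood above the remaining 11, where the highest mean was 6.61 CPM (2224). Wnt5b, a ligand known mostly for signals that bypass beta-catenin, ran at 25.9, 39.6 and 78.9 CPM in 2225 and 1.58, 3.02 and 5.07 CPM in 9263, again without overlap (log2 difference 3.68 ± 0.38, adjusted p = 1.69e-13). Its close relative Wnt5a went the other way, at 2.5, 4.23 and 5.46 CPM in 2225 and 5.74, 22.8 and 52.9 CPM in 9263 (log2 difference -2.70 ± 0.34, adjusted p = 1.85e-10). Without libraries CP-3552 to CP-3554, where Wnt5a was at 22.8 to 52.9 CPM, the difference was -1.97 (adjusted p = 4.2e-06). Wnt5b was thus higher in 2225 and Wnt5a in 9263, while both genes were detected in every library of each model.

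Wnt10b, a canonical ligand of the mammary bud, reached 4.51, 12.6 and 25.7 CPM in 9263 against 0.888, 1.68 and 2.44 CPM in 2225 with no overlap (log2 difference -2.92 ± 0.48, adjusted p = 3.59e-07). Its closest relative, Wnt10a, did not pass (10.9 to 17.6 CPM in 2225, 9.49 to 40.2 CPM in 9263, log2 difference -0.84 ± 0.49, adjusted p = 0.15), although it did in the fit of the 17 libraries alone (-0.89, adjusted p = 0.00536) and with the library-number run as a block (-0.69, adjusted p = 0.031). Wnt9a gave opposite answers within 9263. It stood at 5.8 to 9.34 CPM in libraries CP-3552 to CP-3554, at 0.0689 to 0.395 CPM in the other 4 and at 0.207 to 1.57 CPM in 2225. The log2 difference was -2.19 ± 0.50 (adjusted p = 0.00016) over all libraries, -1.58 without library CP-3553, 1.49 (adjusted p = 0.0129) without libraries CP-3552 to CP-3554 and -3.32 (adjusted p = 1.47e-09) with only those, and it did not pass with limma on the authors' normalized values (-0.61, adjusted p = 0.393) or with the library-number run as a block (-0.34, adjusted p = 0.748). Without those 3 libraries 8 ligands were higher in 2225 and 3 in 9263. Of the ligands not named so far, Wnt4, Wnt7b and Wnt11 lay between 0.129 and 6.05 CPM and did not pass, and 9 others averaged under 1 CPM in both models, 2 of them passing as higher in 9263.

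Among R-spondins and their receptors, Rspo4 was higher in 2225 and Lgr6, Lgr4 and Rnf43 in 9263. Of 9 genes, 3 were higher in 2225 and 4 in 9263. Rspo4 (chr2:151842927-151874668) was found at 34.4, 49.1 and 77.4 CPM in 2225 and 4.07, 7.54 and 27.2 CPM in 9263, and the highest mean elsewhere was 0.139 CPM (4T1). The lowest library of 2225 stood above the highest of 9263 (log2 difference 2.01 ± 0.41, adjusted p = 3.22e-05; 3.22, adjusted p = 5.79e-06 against libraries CP-3552 to CP-3554 alone). Lgr6, a receptor for R-spondins known as a stem cell marker of hair follicles, ran at 94.9, 147 and 173 CPM in 2225 and 407, 566 and 907 CPM in 9263 with no overlap (log2 difference -2.14 ± 0.33, adjusted p = 8.85e-08). Rnf43, a ligase that removes Frizzleds and is itself a Wnt target, differed in the same direction (53.2, 66.2 and 74 against 95.8, 161 and 200 CPM, log2 difference -1.25 ± 0.13, adjusted p = 5.47e-13), and its partner Znrf3 did not pass (0.12 ± 0.17, adjusted p = 0.585). These 9263 levels were the highest of the 13 models for Lgr6, Lgr4 and Rnf43.

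Lgr4 overlapped between the models (93.4 to 139 against 107 to 272 CPM, log2 difference -0.68 ± 0.17, adjusted p = 0.000551), and with libraries CP-3552 to CP-3554 as the only ones of 9263 the difference was -0.09 (adjusted p = 0.773). Lgr5, the intestinal stem cell marker, passed narrowly at 6.14, 9.95 and 14.5 CPM in 2225 against 1.88, 3.28 and 10.5 CPM in 9263 (log2 difference 1.18 ± 0.50, adjusted p = 0.0418). That call was lost in 9 of the 17 fits that left out 1 library (4 of 2225 and 5 of 9263, 1.04 to 1.17), without a filter on low counts (1.18, adjusted p = 0.0588) and without libraries CP-3552 to CP-3554 (0.79, adjusted p = 0.283), while against those 3 alone the difference was 2.04 (adjusted p = 0.0164). Rspo3 was scarce in both models (0 to 0.198 CPM in 2225, 1.54 to 2.78 CPM in libraries CP-3552 to CP-3554 and 0.0517 to 0.344 CPM in the other libraries of 9263). Its log2 difference was -5.01 ± 0.93 (adjusted p = 4.84e-06), -5.74 without library CP-3568 of 2225, -2.69 (adjusted p = 0.0364) without libraries CP-3552 to CP-3554, -6.11 (adjusted p = 3.02e-07) with only those and -3.87 with limma.

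The Frizzled receptors differed in kind. Fzd10, Fzd5 and Fzd3 were near absent or low in 9263, and Fzd8 was low in 2225. Of 16 receptor genes, 4 were higher in 2225 and 3 in 9263, beside 23.3% and 27.8% of all tested genes. Fzd10 (chr5:128600844-128604093) was at 22.9, 35.5 and 52.4 CPM in 2225 and 0, 0.0754 and 0.263 CPM in 9263 (log2 difference 8.62 ± 0.78, adjusted p = 2.14e-15, 9.87, adjusted p = 1.65e-12 without libraries CP-3552 to CP-3554 and 7.54, adjusted p = 1.09e-08 with only those). Fzd5 stood at 177, 397 and 528 CPM in 2225 and 6.36, 10.9 and 13.9 CPM in 9263 (log2 difference 5.23 ± 0.28, adjusted p = 3.48e-27), rank 1 and rank 11 of 13 models. Fzd3 showed the same split at lower levels (6.71, 8.11 and 9.68 against 0.0517, 0.113 and 0.556 CPM, log2 difference 5.55 ± 0.34, adjusted p = 1.26e-23, 6.55, adjusted p = 2.86e-23 without libraries CP-3552 to CP-3554 and 4.67, adjusted p = 9.27e-15 with only those). No library overlapped for these 3 genes.

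Fzd8 was the reverse, at 0.944, 1.25 and 1.44 CPM in 2225 and 6.46, 11.2 and 15.7 CPM in 9263, again with no overlap (log2 difference -3.14 ± 0.21, adjusted p = 2.21e-21); with libraries CP-3552 to CP-3554 alone it was -2.44 (adjusted p = 1.31e-13). Ror2, a receptor for Wnt5a, was higher in 9263 (66.2 to 99.7 against 106 to 230 CPM, log2 difference -0.93 ± 0.36, adjusted p = 0.0244). This call was lost without library CP-3851 or CP-3852 of 9263 (-0.82 and -0.79), with limma on the authors' normalized values (-0.83, adjusted p = 0.18) and with libraries CP-3552 to CP-3554 alone (-0.44, adjusted p = 0.467). The co-receptor Lrp5 was slightly higher in 2225 (0.50 ± 0.12, adjusted p = 0.000454), but not without libraries CP-3552 to CP-3554 (0.27, adjusted p = 0.0938). Lrp6 and Fzd7 did not pass (0.06 ± 0.16, adjusted p = 0.793 and -0.20 ± 0.20, adjusted p = 0.421). Both split by library number, since Lrp6 was higher in 2225 than in libraries CP-3552 to CP-3554 (0.80, adjusted p = 0.000382) and not than in the other libraries of 9263 (-0.29, adjusted p = 0.132). Fzd7 gave 0.81 (adjusted p = 0.00343) against libraries CP-3552 to CP-3554 alone and -0.63 (adjusted p = 0.00696) without them. The other 8 receptor genes differed by -0.45 to 0.37, and 1 of them passed (Fzd6, higher in 9263).

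Secreted antagonists were the Wnt list that leaned most to 9263, with 8 of 15 tested members higher there and 1 (Dkk3) in 2225. Wif1, which binds Wnt proteins outside the cell, was at 14, 20.3 and 35.2 CPM in 2225 and 281, 488 and 755 CPM in 9263, and the highest mean elsewhere was 85.1 CPM (2224). The groups were far apart (log2 difference -4.50 ± 0.58, adjusted p = 6.23e-10); with libraries CP-3552 to CP-3554 alone it was -3.89 (adjusted p = 1.65e-06). Notum, an enzyme that strips the lipid from Wnt proteins, ran at 1.12, 2.89 and 6.37 CPM in 2225 and 37.3, 94.9 and 129 CPM in 9263 (log2 difference -4.84 ± 0.64, adjusted p = 1.14e-09). Apcdd1, a membrane-bound Wnt inhibitor of the hair follicle, reached 64.9, 89.6 and 134 CPM in 9263 against 3.52, 4.59 and 5.14 CPM in 2225 (log2 difference -4.42 ± 0.40, adjusted p = 1.21e-15). All 3 are known as Wnt target genes in other tissues, and in 9263 each had the highest mean of the 13 models.

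Sfrp2, a decoy receptor, was found at 0.68 to 6.29 CPM in 2225 and 10.6 to 63.9 CPM in 9263 (log2 difference -3.90 ± 0.72, adjusted p = 3.79e-06; -3.15, adjusted p = 0.00119 with libraries CP-3552 to CP-3554 alone and -3.31 with the library-number run as a block). Its relative Sfrp1 was about level (0.08 ± 0.33, adjusted p = 0.876), with 62 to 91.5 CPM in libraries CP-3552 to CP-3554 and 170 to 270 CPM in the other libraries of 9263, and against libraries CP-3552 to CP-3554 alone it was higher in 2225 (1.14, adjusted p = 0.035). Dkk4, a Lrp5 and Lrp6 inhibitor, was at 4.16, 8.34 and 15.5 CPM in 2225 and 12, 19.9 and 128 CPM in 9263 and at most 0.717 CPM elsewhere, with overlap (log2 difference -2.20 ± 0.47, adjusted p = 0.000104; -0.58, adjusted p = 0.427 with libraries CP-3552 to CP-3554 alone). Sostdc1, which blocks BMP and Wnt signals, did not overlap (21.4 to 45.3 against 62.3 to 103 CPM, log2 difference -1.44 ± 0.42, adjusted p = 0.0032; -1.24, adjusted p = 0.058 with libraries CP-3552 to CP-3554 alone). The exception, Dkk3, a Dkk relative with no clear Wnt role, was at 19.2 to 29.6 CPM in 2225 and 5.49 to 17.9 CPM in 9263 (log2 difference 0.93 ± 0.36, adjusted p = 0.0248). That call was lost without library CP-3058 of 9263 (0.81, adjusted p = 0.0634) and with libraries CP-3552 to CP-3554 alone (0.55, adjusted p = 0.356). Kremen2 did not pass (-0.06 ± 0.49, adjusted p = 0.939), and of the other 6 members Dkk2 and Sfrp4 passed, both higher in 9263. Both calls rested on libraries CP-3552 to CP-3554. Dkk2 was at 5.13 to 10.5 CPM there and 0.293 to 0.949 CPM in the other libraries of 9263, and without the 3 its log2 difference was 0.68 (adjusted p = 0.349). Sfrp4 was at 2.52 to 11.8 and 0 to 0.116 CPM, and without the 3 its log2 difference was 1.015 (adjusted p = 0.627). With limma neither passed (-1.08, adjusted p = 0.149, and -2.21, adjusted p = 0.126), and with the library-number run as a block Dkk2 did not (-0.70). Without library CP-3553 alone both passed (-1.29 and -3.60), and Sfrp4 was -5.69 without library CP-3569 of 2225.

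Target and feedback genes did not move as 1 group. Of 24 tested, 7 were higher in 2225 and 10 in 9263, beside 23.3% and 27.8% of all tested genes. Without libraries CP-3552 to CP-3554 the counts were 8 and 7, and with limma 8 and 8. Axin2, the most used readout of the pathway, was found at 43, 59.8 and 68.6 CPM in 2225 and 102, 122 and 162 CPM in 9263. The lowest library of 9263 stood above the highest of 2225, and the log2 difference was -1.08 ± 0.43 (adjusted p = 0.0324). The call was lost without library CP-3552 of 9263 (-0.99, adjusted p = 0.0628), with limma (-1.04, adjusted p = 0.1), without a filter (-1.07, adjusted p = 0.0514), without libraries CP-3552 to CP-3554 (-0.99, adjusted p = 0.11) and with only those 3 (-1.12, adjusted p = 0.0978). Nkd1, a feedback inhibitor at the level of Dishevelled, went the other way, at 164, 343 and 363 CPM in 2225 and 67.4, 89.1 and 199 CPM in 9263, with overlap (log2 difference 1.55 ± 0.37, adjusted p = 0.000306). Its partner Nkd2 was level between the models (-0.04 ± 0.36, adjusted p = 0.947).

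The Wnt target and receptor Tnfrsf19, whose window is printed above, ran at 60.8, 92.2 and 108 CPM in 2225 and 268, 383.8 and 574 CPM in 9263 (log2 difference -2.15 ± 0.28, adjusted p = 9.52e-10). Sp5, a transcription factor induced by beta-catenin, was scarce, at 0.131, 0.385 and 0.894 CPM in 2225 and 1.07, 3 and 5.17 CPM in 9263 (log2 difference -2.69 ± 0.54, adjusted p = 2.21e-05). Bambi, a decoy BMP receptor, was at 24.7 to 41 CPM in 2225 and 59.8 to 171 CPM in 9263 (log2 difference -2.12 ± 0.27, adjusted p = 4.83e-10), and Cd44 at 44.6 to 92.2 and 123 to 402 CPM (log2 difference -1.64 ± 0.18, adjusted p = 2.64e-12). Tcf7, a Tcf factor that is itself a target, was higher in 9263 (97.7 to 136 against 159 to 234 CPM, log2 difference -0.69 ± 0.26, adjusted p = 0.0207; -0.57, adjusted p = 0.172 with libraries CP-3552 to CP-3554 alone). None of these 5 genes overlapped. Lef1 was low in both (0.102, 0.517 and 1.13 against 1.51, 2.29 and 3.88 CPM, log2 difference -2.30 ± 0.52, adjusted p = 0.00015), beside 35.3 CPM in 2208.

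Ccnd1 and Myc, cell cycle targets, were a little higher in 2225 (347 to 638 against 230 to 382 CPM and 196 to 360 against 186 to 279 CPM, log2 differences 0.79 ± 0.20, adjusted p = 0.000678 and 0.47 ± 0.15, adjusted p = 0.00527), with overlap. Vax2, a homeobox gene of the eye placed in the target list, was higher in 2225 (2.46 to 5.8 against 0.0698 to 0.552 CPM, log2 difference 4.04 ± 0.52, adjusted p = 6.5e-10, 4.81, adjusted p = 9.92e-09 without libraries CP-3552 to CP-3554 and 3.36, adjusted p = 7.21e-05 with only those). Edar, the ectodysplasin receptor, was at 84.1 to 118 CPM in 2225, 53.7 to 72.7 CPM in libraries CP-3552 to CP-3554 and 110 to 199 CPM in the other libraries of 9263, and did not pass (-0.16 ± 0.41, adjusted p = 0.782). Of the other 11 tested members, 3 passed higher in 2225 and 2 higher in 9263 from means under 1 CPM, and Irx3 passed higher in 9263.

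**Figure D1:**
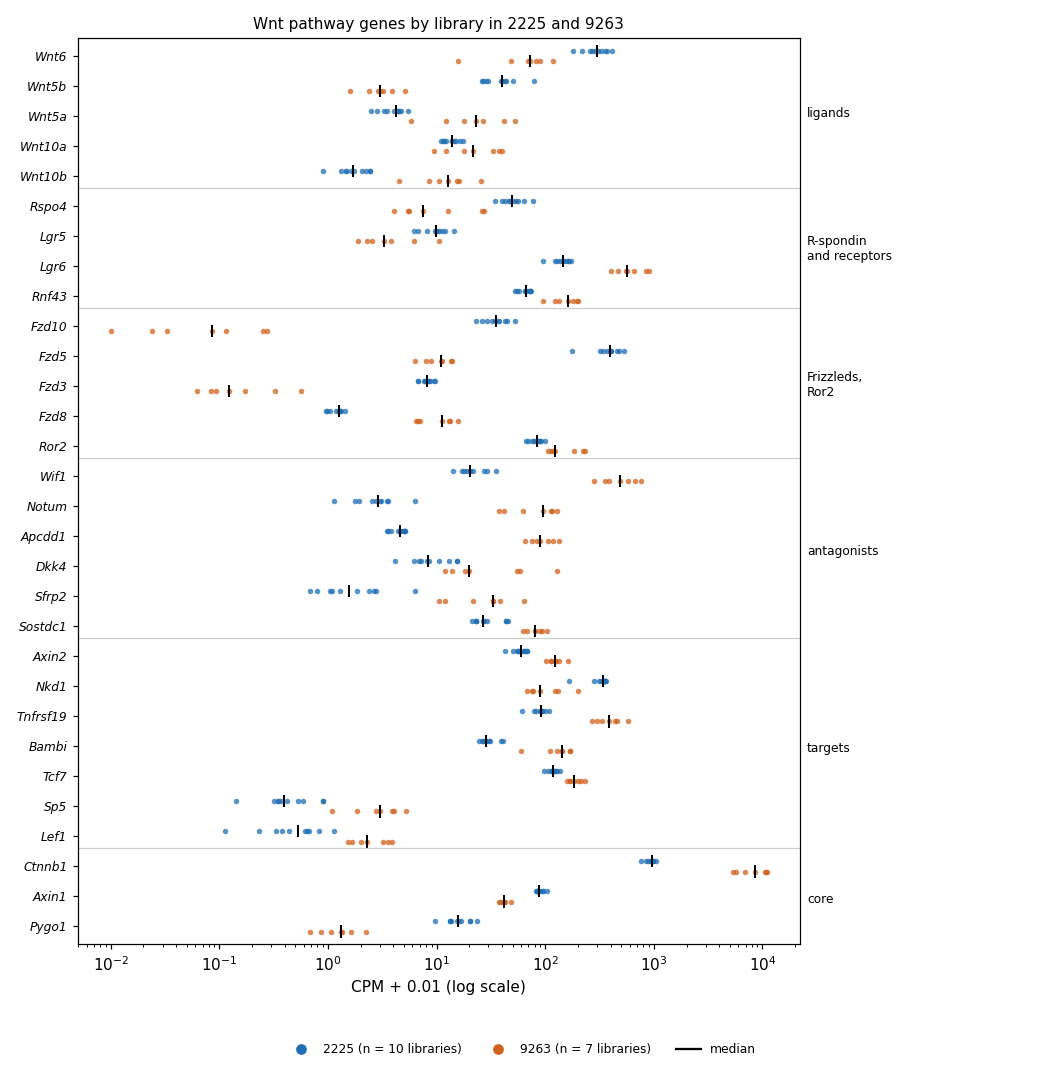
CPM + 0.01 on a log axis for 30 Wnt pathway genes, 1 point per library (2225, n = 10; 9263, n = 7), with a black bar at each median and the genes grouped by role. Points of the models are apart for Fzd10, Fzd5 and Fzd3 (2225 higher) and for Wif1, Notum, Apcdd1 and Ctnnb1 (9263 higher), and they overlap for Wnt10a, Lgr5 and Dkk4.

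Among the 20 genes of Wnt secretion and the cytoplasmic core, 7 were higher in each model, 2 in each by at least 2-fold. Ctnnb1, which encodes beta-catenin (chr9:120929216-120960507, plus strand), stood out. Its lowest, median and highest levels were 766, 965 and 1043 CPM in 2225 and 5354, 8549 and 10990 CPM in 9263 (log2 difference -3.17 ± 0.13, adjusted p = 7.33e-34). Within 9263 it was at 5354 to 6897 CPM in libraries CP-3552 to CP-3554 and 8549 to 10990 CPM in the other 4, and both sets lay above every library of 2225. The means of the other 11 models ran from 435 to 1649 CPM (KPB1-A), so 2225 was within that range and 9263 above it.

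The genes beside Ctnnb1 on chr9 were also high in 9263. They were looked at after the level of Ctnnb1 was seen. From Rpl14, at -0.36 Mb from the start of Ctnnb1, to Nktr, at 0.79 Mb, 7 of 8 measured genes had their highest mean of the 13 models in 9263, over 1.19 Mb. The ends were set at the outermost genes with that pattern, so that none of the 23 further measured genes between -1.53 and 1.88 Mb has it by construction. Rpl14, a ribosomal protein gene, was at 632, 991 and 1108 CPM in 2225 and 2169, 3545 and 4935 CPM in 9263 (log2 difference -1.93 ± 0.15, adjusted p = 1.15e-18). Trak1, a trafficking adaptor, was at 90, 114 and 124 and 287, 535 and 637 CPM (log2 difference -2.10 ± 0.11, adjusted p = 4.24e-27; -1.49, adjusted p = 2.76e-17 with libraries CP-3552 to CP-3554 alone). Sec22c, a gene of the endoplasmic reticulum to Golgi route, was at 22.4 to 28.8 and 73.5 to 130 CPM (log2 difference -1.96 ± 0.10, adjusted p = 1.7e-27). Nktr overlapped (137 to 212 against 196 to 773 CPM, log2 difference -1.28 ± 0.16, adjusted p = 4.15e-10; -0.59, adjusted p = 0.00801 with libraries CP-3552 to CP-3554 alone). Ulk4 overlaps the end of Ctnnb1 on the opposite strand, and as the strand of counting is not stated its difference (-2.45 ± 0.33, adjusted p = 1.97e-09; -1.79, adjusted p = 0.000149 with libraries CP-3552 to CP-3554 alone) cannot be told apart from reads of Ctnnb1. The exception was the neuropeptide receptor gene Vipr1 (0.38 ± 0.28, adjusted p = 0.273), which passed as higher in 2225 against libraries CP-3552 to CP-3554 alone (1.43, adjusted p = 0.00236). DNA copy number was not measured in these data.

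**Figure D2:**
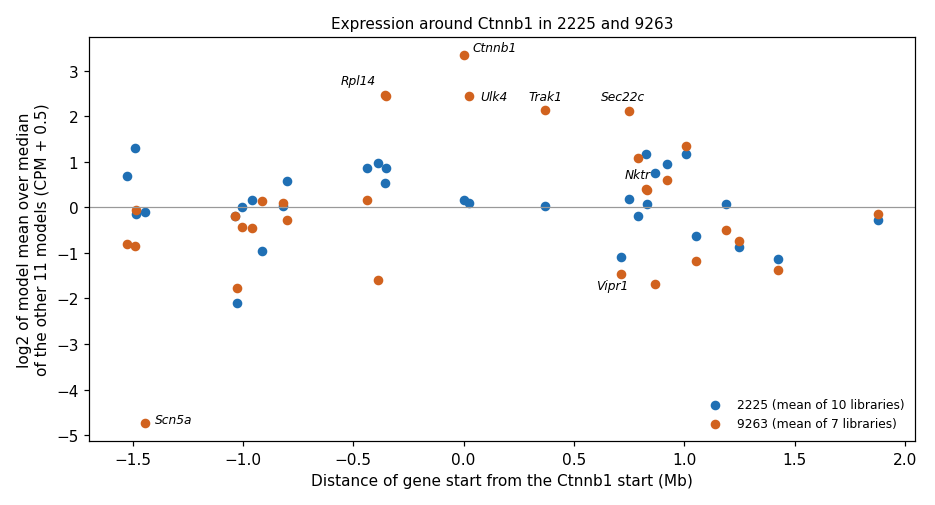
Expression of the 31 measured genes around Ctnnb1, as the log2 of each model's mean CPM + 0.5 over the median of the other 11 models, against the distance of each gene's start from that of Ctnnb1 in Mb. The 9263 points from Rpl14 to Nktr stand above 0, except Vipr1, while the 2225 points of the same genes lie between -0.20 and 0.86, Vipr1 aside.

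Other core genes differed less. Axin1, the scaffold of the destruction complex, lies on chr17 among neighbours that were mostly higher in 2225 too. It was at 81.9 to 103 CPM in 2225 and 37.7 to 48.5 CPM in 9263, with no overlap (log2 difference 1.10 ± 0.09, adjusted p = 5.13e-18). Apc, its partner, was slightly higher in 9263 (-0.32 ± 0.14, adjusted p = 0.0476), a call lost in 12 of the 17 fits that left out 1 library, in 7 other settings of the scaling, the filter, the test or the libraries (-0.35 to -0.21) and with libraries CP-3552 to CP-3554 alone (0.14, adjusted p = 0.533). Apc2 was low, at 0.681 to 2.38 CPM in 2225 and 3.79 to 7.39 CPM in 9263 (log2 difference -2.06 ± 0.27, adjusted p = 7.26e-10). Pygo1, a nuclear cofactor of beta-catenin, was higher in 2225 (9.72, 15.8 and 23.3 against 0.672, 1.32 and 2.22 CPM, log2 difference 3.66 ± 0.33, adjusted p = 8.25e-16), as was Dvl1 (0.60 ± 0.12, adjusted p = 2.91e-05). Tcf7l2 and Wls, which carries Wnt proteins to the cell surface, were higher in 9263 (-0.81 ± 0.14, adjusted p = 6.42e-07 and -0.66 ± 0.13, adjusted p = 1.28e-05). Tcf7l1 was higher in 2225 (0.68 ± 0.22, adjusted p = 0.00713), but not without libraries CP-3552 to CP-3554 (0.39, adjusted p = 0.217; 1.29, adjusted p = 0.000365 against those alone). The other 11 core genes differed by -0.47 to 0.43, with 3 higher in 2225 and 2 in 9263.

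Basal keratins overlapped between the models, while Krt15, Krt6a and contractile genes were higher in 9263. Of 25 basal and myoepithelial markers, 1 was higher in 2225 and 12 in 9263. Krt5 (162 to 739 CPM in 2225, 587 to 774 CPM in 9263), Krt14 (226 to 453 and 232 to 630 CPM) and Krt17 (135 to 239 and 156 to 388 CPM) did not pass (log2 differences -0.92 ± 0.74, adjusted p = 0.306, -0.33 ± 0.59, adjusted p = 0.675 and -0.54 ± 0.48, adjusted p = 0.366). In the fit of the 17 libraries alone Krt5 and Krt17 passed, higher in 9263 (-0.96, adjusted p = 0.00186, and -0.57, adjusted p = 0.00531), and likewise with the library-number run as a block (-1.20 and -0.63). Trp63, the transcription factor of stratified epithelium, was higher in 9263 (81.6, 110 and 128 against 148, 217 and 294 CPM, log2 difference -1.12 ± 0.38, adjusted p = 0.0118; -0.71, adjusted p = 0.253 with libraries CP-3552 to CP-3554 alone). Krt15, a keratin of hair follicle stem cells, was at 3.48, 9.11 and 20.1 CPM in 2225 and 129, 219 and 278 CPM in 9263 (log2 difference -4.37 ± 0.59, adjusted p = 1.99e-09), and Krt6a at 0.817 to 6.58 and 23.1 to 209 CPM (log2 difference -4.90 ± 0.82, adjusted p = 5.09e-07). P-cadherin, from Cdh3, did not pass (-0.59 ± 0.31, adjusted p = 0.102) and split by library number (171 to 221 CPM in libraries CP-3552 to CP-3554, 351 to 426 in the others; -0.92, adjusted p = 0.0287 without the 3 and -0.61, adjusted p = 0.00209, in the fit of the 17 libraries).

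Contractile genes of myoepithelium and smooth muscle were higher in 9263. Acta2 was at 70.5, 86.1 and 122 CPM in 2225 and 284, 437 and 705 CPM in 9263 (log2 difference -2.25 ± 0.31, adjusted p = 5.28e-09), Cnn1 at 13.9 to 54.8 and 218 to 544 CPM (-3.10 ± 0.50, adjusted p = 2.01e-07) and Myh11 at 1.83 to 5.84 and 26.1 to 203 CPM (-4.59 ± 0.46, adjusted p = 1.01e-13; -3.25, adjusted p = 9.99e-08 with libraries CP-3552 to CP-3554 alone). Pericytes and vessel walls express the same genes. The summed endothelial and pericyte list was at 878 to 1239 CPM in 2225. In 9263 it was at 1294 CPM in library CP-3553 and at 575 to 780 CPM in the other libraries, below all of 2225. Of its 21 members, 5 were higher in 2225 and 2 in 9263, or 14 and 1 without libraries CP-3552 to CP-3554. The part of these cells in the contractile differences was not tested.

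Luminal keratins and Elf5 were higher in 2225, while Gata3, Esr1 and Pgr were higher in 9263. Of 24 luminal markers, 12 were higher in 2225 and 6 in 9263, all by at least 2-fold. Krt8 ran at 674, 921 and 1343 CPM in 2225 and 66.5, 122 and 227 CPM in 9263, and Krt18 at 903 to 1766 and 86.4 to 364 CPM, with no overlap for either (log2 differences 2.80 ± 0.23, adjusted p = 7.42e-18 and 2.50 ± 0.27, adjusted p = 2.04e-12; with libraries CP-3552 to CP-3554 alone, 3.48, adjusted p = 1.84e-14 and 3.33, adjusted p = 1.23e-10). Krt19 followed at lower levels (23.4 to 74.8 against 1.73 to 6.04 CPM, 3.96 ± 0.79, adjusted p = 1.64e-05). The luminal progenitor factor Elf5 was at 77 to 127 CPM in 2225 and 13.2 to 66.3 CPM in 9263 (1.85 ± 0.34, adjusted p = 4.45e-06; 2.62, adjusted p = 9.05e-06 with libraries CP-3552 to CP-3554 alone). In contrast, the luminal regulator Gata3 was at 0.955, 1.25 and 2.74 CPM in 2225 and 7.09, 16.4 and 54.9 CPM in 9263 (log2 difference -4.05 ± 0.30, adjusted p = 1.01e-19, -2.96, adjusted p = 7.03e-15 without libraries CP-3552 to CP-3554 and -4.77, adjusted p = 1.07e-22 with only those). Esr1 and Pgr, the oestrogen and progesterone receptors, were low in both and lower in 2225 (0.251 to 0.706 against 2.08 to 5.87 CPM and 0.534 to 2.3 against 4.65 to 10.9 CPM; log2 differences -3.16 ± 0.28, adjusted p = 5.32e-16 and -2.78 ± 0.62, adjusted p = 0.000109).

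Tight junction claudins also leaned to 2225, with 12 of 18 tested members higher there and 3 in 9263. Cldn3 was at 211, 303 and 429 CPM in 2225 and 6.05, 12 and 28.1 CPM in 9263 (log2 difference 4.39 ± 0.35, adjusted p = 3.17e-18; 5.06, adjusted p = 1.89e-13 with libraries CP-3552 to CP-3554 alone), and Cldn4 at 190 to 351 and 18.7 to 76.1 CPM (2.30 ± 0.36, adjusted p = 9.72e-08). Cldn6, a claudin of embryonic epithelia, was at 24.3 to 57 CPM in 2225 and 0 to 0.073 CPM in 9263, beside at most 0.123 CPM (4T1) in the other models. Its chr17 neighbour Cldn9 was at 2.89 to 6.77 and 0 to 0.0377 CPM.

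The squamous and hair lists had the median log2 differences of largest size among the gene lists. Of 28 tested genes of the squamous cell and its cornified envelope, 27 were higher in 9263 and 0 in 2225, with a median log2 difference of -5.21. The summed list was at 350 to 505 CPM in 2225 and 750 to 2494 CPM in 9263, so 2225 did not lack these genes as a class. Krtdap, a secreted protein of differentiating keratinocytes, was at 0, 0 and 0.06 CPM in 2225 and 2.27, 47.8 and 62.9 CPM in 9263. Sprr1b, a small proline-rich protein of the cornified envelope, was at 0, 0 and 0.0524 and 1.56, 39.8 and 105 CPM. Cnfn (cornifelin) was at 0 to 0.02 CPM in 2225 and 1.24 to 25.7 CPM in 9263. Lce3c, a late envelope gene, had no count in any library of 2225 and 0.181 to 14.4 CPM in 9263, at least 1043-fold higher. Libraries CP-3552 to CP-3554 held most of it (7.7 to 14.4 CPM, against 0.181 to 5.56 CPM in the other 4), and without them it was at least 398-fold higher. The desmosomal cadherin Dsg1a had 3 counts in 2225 and 1.52 to 61.7 CPM in 9263, a ratio with a 95% interval of 1221 to 17310, or 759 to 10750 without these 3 libraries. These bounds set 3 counts over all libraries of 2225 as the limit that a count of 0 allows, and the intervals are exact Poisson intervals; both cover counting error only. Every library of 9263 exceeded every library of 2225 for these 5 genes. Krt16, a keratin of stressed and growing epidermis, was at 0 to 0.33 and 9.69 to 188 CPM.

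Hair genes went the same way. Of 29 hair follicle and hair shaft genes, 23 were higher in 9263 and 1 in 2225, with a median log2 difference of -4.88. Their summed CPM was 369 to 439 in 2225 and 633 to 4725 in 9263, so 2225 held some of these genes too. The keratins Krt25, Krt26, Krt27 and Krt28 build the inner root sheath, the tube that moulds the growing hair. Krt26 had no count in 2225 and 3.2, 88.6 and 397 CPM in 9263, at least 29750-fold higher, and Krt25 had 1 count in 2225 and 1.82, 33.9 and 504 CPM in 9263, a ratio of 48560-fold (95% interval 8715 to 1918000). Krt27 stood at 0.00999 to 0.21 CPM in 2225 and 4.88 to 578 CPM in 9263, and Krt28 at 0 to 0.0872 and 0.801 to 249 CPM. Tchh (trichohyalin, which hardens the sheath) was at 0.157, 0.604 and 1.24 CPM in 2225 and 33.7, 371 and 1092 CPM in 9263. The levels within 9263 spanned a wide range, and libraries CP-3552 to CP-3554 were the high ones (190 to 504 CPM against 1.82 to 33.9 CPM for Krt25, 260 to 578 against 4.88 to 81.7 for Krt27). Without these 3, Krt26 was at least 9792-fold higher and the ratio of Krt25 was 9609-fold (95% interval 1725 to 379500). Without them, the same 23 hair genes and 22 of the 27 squamous genes were higher in 9263, and 3 hair genes were higher in 2225. Some keratins resemble others of their type in sequence, and reads shared between them may have been split in counting.

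**Figure D3:**
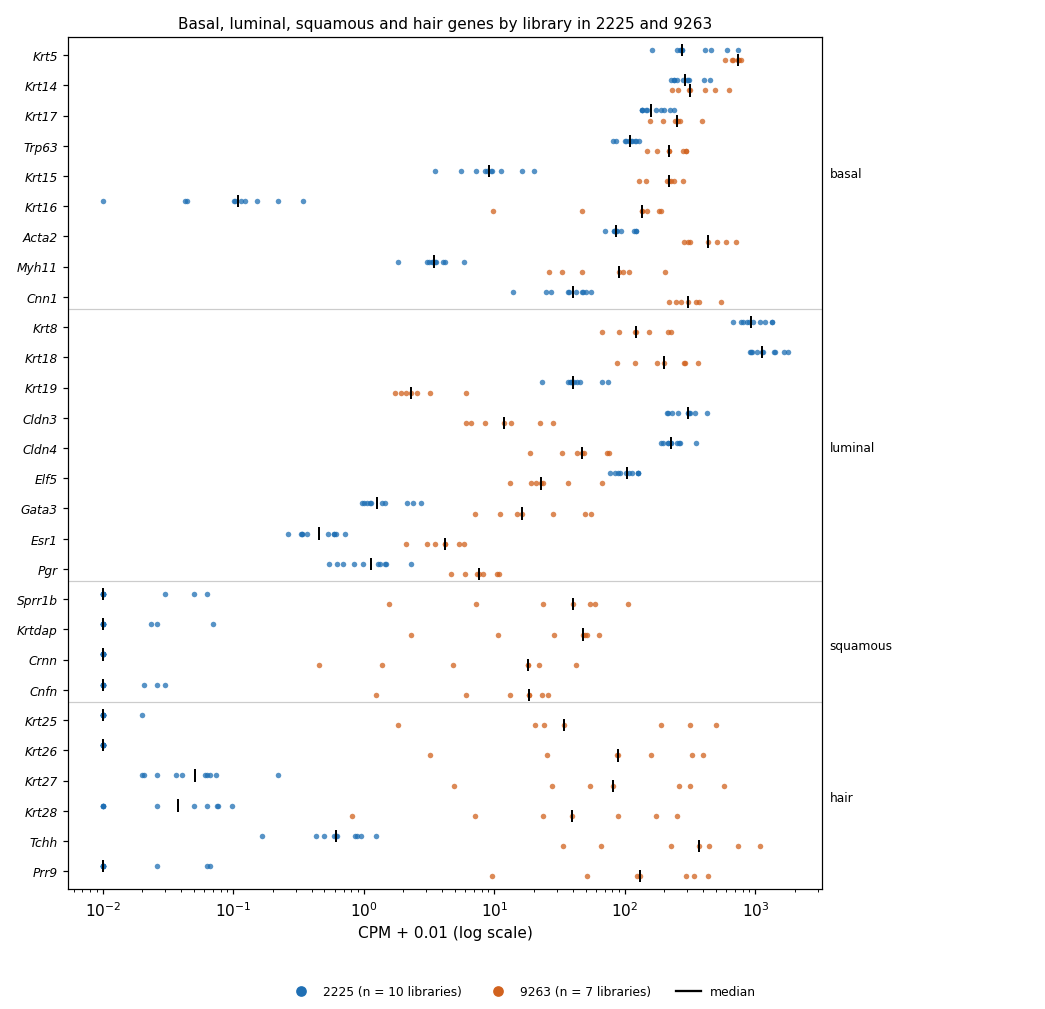
CPM + 0.01 on a log axis for 28 basal, luminal, squamous and hair genes, 1 point per library (2225, n = 10; 9263, n = 7), with a black bar at each median. Krt5, Krt14 and Krt17 overlap, and Krt8, Krt18, Krt19, Cldn3, Cldn4 and Elf5 are higher in 2225. The squamous and hair genes shown are at or near 0 in 2225 and spread over more than 10-fold in 9263.

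The 15 largest differences in each direction, among genes with no overlap and a mean of at least 5 CPM in the higher model, were also read by name. Higher in 9263 were Krt26, Krt25, Prr9, Crnn, Idi2, Acer1, Krt27, Lrrtm1, Dsg1a, Tchhl1, Sprr1b, Tenm1, Crct1, Hrnr and Rptn, most of them genes of the epidermis or the hair sheath. Crnn, Acer1 and Tenm1 had no count in any library of 2225, and were at least 2941-fold, 1701-fold and 1273-fold higher in 9263. Crnn and Acer1 were highest in libraries CP-3552 to CP-3554 (18.1 to 42.6 and 14.2 to 21.1 CPM, against 0.448 to 18.2 and 0.319 to 4.98 CPM in the other 4), and Tenm1 in the other 4 (6.57 to 12.3 against 1.74 to 5.01 CPM). Without libraries CP-3552 to CP-3554 the bounds were 1189-fold, 545-fold and 1774-fold. Prr9, a hair shaft gene, was at 0 to 0.0565 CPM in 2225 and 9.59 to 433 CPM in 9263, and Idi2, an isopentenyl diphosphate isomerase, at 0 to 0.061 and 12.9 to 379 CPM. Lrrtm1 and Tenm1 are neuronal genes, and Lrrtm1 had 2 counts in 2225 against 9.52 to 39.9 CPM in 9263, a ratio of 8102-fold (95% interval 2243 to 66900).

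Higher in 2225 were Ren1, Cldn6, Onecut2, Gata4, Rhox5, Pax6, Sectm1b, Grid1, Sox2, Rhox2g, Tmprss2, Fstl4, Fzd10, Xlr4a and Brinp2. This set held developmental transcription factors and X-linked germ cell genes. Ren1, the renin gene, was at 290, 331 and 366 CPM in 2225 and 0, 0.0258 and 0.897 CPM in 9263. The homeobox gene Rhox5 of testis and placenta was at 211, 334 and 644 and 0.163, 0.59 and 0.949 CPM, and Brinp2, a neuronal gene, at 121 to 248 and 0.186 to 0.833 CPM. The transcription factors Gata4 of heart and endoderm, Pax6 of the eye, Onecut2 of liver and Sox2 of stem cells were at 12.1 to 24.6, 12.7 to 27.1, 3.96 to 9.86 and 4.01 to 7.65 CPM in 2225 and did not exceed 0.0556 CPM in any library of 9263. The serine protease gene Tmprss2 was at 30.5 to 50.2 CPM in 2225 and 0 to 0.209 CPM in 9263. Rhox2g and Xlr4a belong to families of near-identical copies, so their counts are uncertain.

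Other signalling systems of the skin appendages were set side by side. Of 16 hedgehog genes, 2 were higher in 2225 and 9 in 9263. The ligand Shh had 1 count in 2225 and 1.48, 2.22 and 10.8 CPM in 9263 (7.61 to 10.8 CPM in libraries CP-3552 to CP-3554), a ratio of 1924-fold (95% interval 345 to 76010), or 1025-fold (95% interval 184 to 40490) without these 3 libraries. Gli1, the hedgehog target gene, was at 0.0481, 0.245 and 0.396 CPM in 2225 and 11.5, 14 and 29.3 CPM in 9263 (log2 difference -6.29 ± 0.47, adjusted p = 3.05e-19). The ligand Ihh was 1 of the 2 genes higher in 2225, at a low level (0.518 to 1.37 against 0.0233 to 0.174 CPM, 3.75 ± 0.47, adjusted p = 1.91e-10, and 3.19, adjusted p = 4.28e-05 against libraries CP-3552 to CP-3554 alone). For Shh and Gli1 every library of 9263 stood above every library of 2225.

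Of 43 BMP and TGF-beta genes, 11 were higher in 2225 and 19 in 9263, beside 23.3% and 27.8% of all tested genes. Without libraries CP-3552 to CP-3554 the counts were 14 and 16, and the median log2 difference turned from -0.35 to 0.15. With the library-number run as a block they were 10 and 13 of 36. Bmp4 was at 0.341, 0.677 and 1.43 CPM in 2225 and 12.9, 21.1 and 29.5 CPM in 9263 and Bmp2 at 0.7 to 1.68 and 2.15 to 15.9 CPM (log2 differences -4.68 ± 0.40, adjusted p = 1.31e-16 and -3.12 ± 0.42, adjusted p = 1.53e-09). The BMP target Id3 went with them (8.31 to 26.2 against 47.4 to 199 CPM, -3.10 ± 0.36, adjusted p = 2.95e-11). Gdf5, a joint-forming member, was higher in 2225 (16.1 to 22.6 against 0.452 to 2.02 CPM, 4.04 ± 0.49, adjusted p = 8.4e-11; 4.96, adjusted p = 1.7e-07 against libraries CP-3552 to CP-3554 alone). Of 22 Fgf ligands, 1 was higher in 2225 and 9 in 9263, or 2 and 5 of 21 without libraries CP-3552 to CP-3554, 2 and 6 with limma, and 1 and 4 of 10 with the library-number run as a block. Fgf7, which acts on epithelial cells, was at 1.88, 2.55 and 4.61 CPM in 2225 and 37.4, 53.3 and 77.1 CPM in 9263 (log2 difference -4.31 ± 0.30, adjusted p = 1.1e-20), and Fgf13 at 0 to 0.154 and 2.65 to 4.49 CPM (-5.52 ± 0.53, adjusted p = 1.35e-14). The ligand higher in 2225 was Fgf1 (33.4 to 62.3 against 11.7 to 23.1 CPM, 1.33 ± 0.26, adjusted p = 1.15e-05).

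Notch and ERBB genes were more even. Of 22 Notch genes, 6 were higher in each model, beside 23.3% and 27.8% of all tested genes higher in 2225 and 9263. The receptors Notch1 and Notch3 were higher in 2225 with no overlap (241 to 392 against 81.1 to 136 CPM and 246 to 370 against 76.7 to 141 CPM; log2 differences 1.59 ± 0.17, adjusted p = 6.44e-13 and 1.62 ± 0.20, adjusted p = 2.69e-10), with Dtx4, a regulator of Notch turnover (2.64 ± 0.18, adjusted p = 2.2e-21). Of 17 tested ERBB genes, 7 were higher in 2225 and 5 in 9263. The receptor Erbb3 was at 332 to 419 CPM in 2225 and 78.5 to 205 CPM in 9263 (1.44 ± 0.18, adjusted p = 1.22e-10; 2.08, adjusted p = 9.98e-11 against libraries CP-3552 to CP-3554 alone). Its neuregulin ligands split, with Nrg2 at 16.8, 25.1 and 36.3 CPM in 2225 and 0.0465, 0.226 and 1.04 CPM in 9263 (log2 difference 6.04 ± 0.41, adjusted p = 1.82e-21; 6.84 with limma) and Nrg1 at 10.3, 14.2 and 23 and 39.3, 57.3 and 113 CPM (-2.20 ± 0.41, adjusted p = 5.1e-06). Against libraries CP-3552 to CP-3554 alone the differences were 7.34 (adjusted p = 2.77e-16) and -1.48 (adjusted p = 0.0131).

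Developmental factors outside these pathways differed in both directions. Of 76 tested developmental transcription factors, 24 were higher in each model, beside 23.3% and 27.8% of all tested genes higher in 2225 and 9263. Their median log2 difference was 0.11. Lhx9, a homeobox gene of limb and gonad, was at 1.47, 2.17 and 3.81 CPM in 2225 and 88.6, 150 and 237 CPM in 9263 and at most 4.18 CPM elsewhere (log2 difference -6.01 ± 0.37, adjusted p = 1.35e-23; -5.41, adjusted p = 1.21e-17 with libraries CP-3552 to CP-3554 alone). Irx4, a homeobox gene of the heart ventricle, was at 32.5 to 55.9 CPM in 2225 and 85.2 to 194 CPM in 9263 (-1.61 ± 0.53, adjusted p = 0.00835), a call lost with DESeq2 (-1.59, adjusted p = 0.0882), with limma (-1.54, adjusted p = 0.051) and with libraries CP-3552 to CP-3554 alone (-1.28, adjusted p = 0.124). Of 35 tested Hox genes, 12 were higher in 2225 and 2 in 9263, while their median log2 difference was -0.24; with libraries CP-3552 to CP-3554 alone 11 were higher in each model, and without them 14 and 1. Hoxa5 was at 1.39 to 8.62 CPM in 2225 and 0.226 to 0.736 CPM in 9263 (3.32 ± 0.40, adjusted p = 5.66e-11), and Hoxa3 at 2.01 to 13.6 and 0.439 to 1.95 CPM (2.88 ± 0.40, adjusted p = 4.67e-09; 3.58, adjusted p = 2.08e-08 without libraries CP-3552 to CP-3554, and 2.29, adjusted p = 0.00032 with only those). Hoxb13, a posterior Hox gene, was the opposite (2.17 to 8.31 against 19 to 50.1 CPM, -2.77 ± 0.39, adjusted p = 3.14e-08).

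DNA methyltransferases differed member by member. Dnmt3a, a de novo methyltransferase (chr12:3806007-3914443), was at 4.74, 5.58 and 8.7 CPM in 2225 and 61.3, 92 and 134 CPM in 9263 (log2 difference -3.91 ± 0.13, adjusted p = 1.26e-39), and 9263 was within the range of the other models (48.6 to 163 CPM). Its chr12 neighbours were low in 2225 too. Rab10 was at 7.53 to 15 and 112 to 173 CPM and Asxl2 at 1.46 to 3.72 and 20.7 to 85.8 CPM (log2 differences -3.58 ± 0.10, adjusted p = 3.52e-44 and -4.07 ± 0.19, adjusted p = 2.61e-30). The maintenance enzyme Dnmt1 was higher in 9263 (211 to 291 against 443 to 716 CPM, -1.14 ± 0.10, adjusted p = 4.13e-16) and the second de novo enzyme Dnmt3b higher in 2225 (42 to 60.1 against 16.7 to 38.3 CPM, 1.12 ± 0.20, adjusted p = 1.41e-06). Of 17 tested methylation genes, 5 were higher in 2225 and 6 in 9263, beside 23.3% and 27.8% of all tested genes. Without libraries CP-3552 to CP-3554 the counts were 3 and 6.

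Germ line genes and imprinted genes, both groups that DNA methylation is known to silence, were then read. Of 30 tested germ line genes, 9 were higher in 2225 and 5 in 9263, beside 23.3% and 27.8% of all tested genes. Piwil2, which guards germ cells against transposons, was at 31, 38.4 and 50.8 CPM in 2225 and 0.209, 0.447 and 1.08 CPM in 9263 (log2 difference 6.35 ± 0.43, adjusted p = 1.15e-21). The meiotic cohesin gene Stag3 was at 25.3 to 43.6 and 0.0556 to 1.36 CPM (5.67 ± 0.50, adjusted p = 3.59e-16; 7.0, adjusted p = 4.72e-15 without libraries CP-3552 to CP-3554, 4.81, adjusted p = 6.76e-10 with only those and 6.35 with limma), and Tex14 at 13.5 to 22.5 and 0.347 to 1.05 CPM (4.59 ± 0.30, adjusted p = 3.96e-22; 5.35, adjusted p = 7.29e-16 against libraries CP-3552 to CP-3554 alone). Tex15 was the reverse, at 0.0524 to 0.178 CPM in 2225 and 5.76 to 20 CPM in 9263 (-6.60 ± 0.65, adjusted p = 4.06e-14; -5.80, adjusted p = 1.59e-10 with libraries CP-3552 to CP-3554 alone). Of 38 imprinted genes, 13 were higher in 2225 and 12 in 9263, beside the same shares of all tested genes. The growth inhibitor Cdkn1c was at 159, 212 and 386 CPM in 2225 and 0.744, 1.66 and 7.54 CPM in 9263 (log2 difference 6.70 ± 0.45, adjusted p = 1.76e-21; 7.34 without library CP-3553, 7.73, adjusted p = 1.44e-19 without libraries CP-3552 to CP-3554 and 5.91, adjusted p = 5.92e-13 with only those).

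Among other imprinted genes, Peg3 was at 149 to 289 CPM in 2225, 3.81 to 11.8 CPM in libraries CP-3552 to CP-3554 and 0.749 to 0.949 CPM in the other libraries of 9263 (log2 difference 6.01 ± 0.49, adjusted p = 9.9e-18; 6.89 without library CP-3553, 7.93, adjusted p = 1.02e-19 without all 3, 5.0, adjusted p = 4.6e-11 with only those and 6.75 with limma). Nnat was at 32.5 to 69.3 and 0.861 to 2.88 CPM (4.90 ± 0.57, adjusted p = 1.74e-11). Snrpn and Zrsr1 were higher in 9263 (3.41 to 5.48 against 29.9 to 45.9 CPM and 0.529 to 1.3 against 13.1 to 20.5 CPM; log2 differences -3.20 ± 0.16, adjusted p = 1.34e-28 and -4.05 ± 0.17, adjusted p = 4.02e-33). The growth factor Igf2 was at 57.1, 105 and 339 CPM in 2225 and 232, 549 and 684 CPM in 9263, with overlap (log2 difference -1.85 ± 0.54, adjusted p = 0.00275; -0.95, adjusted p = 0.258 with libraries CP-3552 to CP-3554 alone). Imprinted genes thus differed in both directions, as did the tested genes as a whole.

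Of 29 genes of p53 and its targets, 9 were higher in 2225 and 16 in 9263, 2 and 8 by at least 2-fold. Trp53 itself overlapped (163 to 289 CPM in 2225, 180 to 216 CPM in libraries CP-3552 to CP-3554 and 364 to 513 CPM in the other libraries of 9263; log2 difference -0.46 ± 0.16, adjusted p = 0.0149). It was no longer called without library CP-3058 (-0.30) or CP-3852 (-0.39) of 9263, with the library-number run as a block (-0.29), with limma (-0.35), or with libraries CP-3552 to CP-3554 alone (0.31, adjusted p = 0.2). Its relative Trp73 was higher in 9263 (16.1, 18.8 and 26.6 against 37.8, 56.2 and 94.2 CPM, -1.68 ± 0.39, adjusted p = 0.000206), as were the p53 targets Cdkn1a (17.6 to 78.4 against 84.7 to 223 CPM, -1.55 ± 0.26, adjusted p = 5.64e-07) and Pmaip1 (0.948 to 2.54 against 12.6 to 26.5 CPM, -3.29 ± 0.24, adjusted p = 7.77e-20). Cdkn2a was higher in 2225 with no overlap (102 to 196 against 31.3 to 88.7 CPM, 1.05 ± 0.33, adjusted p = 0.00626). Of 24 proliferation genes, 7 were higher in 2225 and 5 in 9263, beside 23.3% and 27.8% of all tested genes, and none by 2-fold. Without libraries CP-3552 to CP-3554 the counts were 4 and 5. Mki67 did not pass (329 to 593 against 309 to 767 CPM, -0.10 ± 0.19, adjusted p = 0.706).

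Interferon response genes were higher in 9263 in both sets of its libraries. Of 30, 28 were higher in 9263 and 1 in 2225, with a median log2 difference of -2.54, 24 and 1 without libraries CP-3552 to CP-3554, and 27 and 0 with only those. Usp18 was at 0.523, 1.53 and 2.33 CPM in 2225 and 2.63, 15 and 58.5 CPM in 9263 (log2 difference -3.77 ± 0.44, adjusted p = 1.75e-11), and Ifit2 at 0.861 to 3.33 and 10.8 to 43.6 CPM (-3.42 ± 0.36, adjusted p = 7.22e-13). Xaf1 was at 5.32 to 14.9 and 22.9 to 361 CPM (-3.54 ± 0.36, adjusted p = 1.47e-13), with library CP-3058 of 9263 the highest (-2.79 without it). Ifit1 overlapped (0.512 to 2.2 against 0.723 to 31.4 CPM, -3.54 ± 0.49, adjusted p = 4.81e-09; -2.82 with limma). Summed immune lists are given beside them, and their part was not tested. T cell markers summed to 37.7 to 58.2 CPM in 2225 and 69.5 to 124 CPM in 9263, with 14 of 21 higher in 9263 and 1 in 2225. Without libraries CP-3552 to CP-3554, 5 T cell markers were higher in 9263 and 2 in 2225, and their median log2 difference turned from -1.77 to 0.36; with limma the counts were 6 and 1. The macrophage list summed to 531 to 985 CPM in the 4 other libraries of 9263 and 1015 to 1349 CPM in 2225. Summed interferon genes were at 337 to 2214 CPM in those 4 libraries, overlapping the 205 to 365 CPM of 2225. In libraries CP-3552 to CP-3554 they were at 930 to 1480 CPM.

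Stromal and hypoxia genes split 9263 rather than the models. Macrophage markers summed to 2570 to 4228 CPM in libraries CP-3552 to CP-3554, fibroblast markers to 9404 to 17210 CPM and class II antigen presentation genes to 622 to 1252 CPM. In the other 4 libraries of 9263 the sums were 531 to 985, 2541 to 4314 and 23.3 to 91.2 CPM. 2225 was at 1015 to 1349, 2667 to 6853 and 71.0 to 369 CPM, below libraries CP-3552 to CP-3554 for all 3 lists, above the other 4 libraries for macrophages and overlapping them for the other lists. Over all libraries 11 of 20 macrophage markers were higher in 9263 and 1 in 2225; without libraries CP-3552 to CP-3554, 16 were higher in 2225 and 0 in 9263, and with only these 3, 0 and 18. Class II genes gave 0 in 2225 and 9 of 10 in 9263, then 7 and 1, then 0 and 10. Fibroblast markers gave 0 and 7 of 22, then 5 and 0, then 0 and 13. The direction of these lists therefore depended on which libraries of 9263 were used.

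Single genes showed the split. Csf1r, the growth factor receptor of macrophages, was at 16 to 50.1 CPM in 2225, 97.3 to 156 CPM in libraries CP-3552 to CP-3554 and 5.08 to 14.5 CPM in the other libraries of 9263, and its log2 difference was -0.85 ± 0.35 (adjusted p = 0.0345) over all libraries, 1.84 (adjusted p = 8.14e-07) without the 3 and -1.89 (adjusted p = 1.43e-08) with only those. Its call was lost in 7 of the 17 fits without 1 library (-0.80 to -0.39), without a filter (-0.83) and in the fit of the 17 libraries (-0.93, adjusted p = 0.196). Adgre1, the F4/80 antigen of macrophages, gave -1.29 ± 0.40 (adjusted p = 0.00461), 1.77 (adjusted p = 5.47e-05) and -2.37 (adjusted p = 1.49e-09) in the same order, and was no longer called without library CP-3553 (-0.92) or CP-3554 (-0.81) alone or in the fit of the 17 libraries (-1.37, adjusted p = 0.0903). H2-Aa, a class II chain, gave -1.40 ± 0.61 (adjusted p = 0.0489), 2.52 (adjusted p = 0.00328) and -2.52 (adjusted p = 0.000427), and leaving out any of 10 single libraries also lost its call (-1.41 to -0.78). Col1a2, a collagen of fibroblasts, was at 172 to 952 CPM in 2225, 1682 to 2927 CPM in libraries CP-3552 to CP-3554 and 291 to 510 CPM in the others (-1.08 ± 0.45, adjusted p = 0.0375, and 0.59, adjusted p = 0.369 without the 3, -1.97, adjusted p = 0.00101 with only those), a call lost in 8 of the 17 fits without 1 library (-1.06 to -0.62). Skeletal muscle genes summed to 15.7 CPM in library CP-3552, 2284 CPM in library CP-3553, 656 CPM in library CP-3554, 17.6 to 24.7 CPM in the others and 149 to 419 CPM in 2225. The muscle myosin Myh4 rested on library CP-3553 (-5.09 ± 1.80, adjusted p = 0.0148; -2.61 without it, 5.95, adjusted p = 0.171 without all 3).

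Hypoxia and glycolysis genes split the other way, at a sum of 7501 to 8376 CPM in libraries CP-3552 to CP-3554, 24380 to 26090 CPM in the other 4 libraries of 9263 and 10410 to 24330 CPM in 2225. Over all libraries 2 of 25 were higher in 2225 and 4 in 9263; without libraries CP-3552 to CP-3554 the counts were 1 and 12, and with only these 3 they were 22 and 0. Vegfa, the vessel growth factor, was at 143, 529 and 1126 CPM in 2225, 86.2 to 131 CPM in libraries CP-3552 to CP-3554 and 996 to 1920 CPM in the others (-0.57 ± 0.41, adjusted p = 0.252, then -1.28, adjusted p = 0.00589 and 2.44, adjusted p = 0.000217). The glucose transporter Slc2a1 did the same (-0.77 ± 0.35, adjusted p = 0.0582, then -1.47, adjusted p = 7.31e-05 and 2.00, adjusted p = 8.23e-05), and in 6 of the 17 fits without 1 library it passed as higher in 9263 (-0.97 to -0.88). Ldha, which makes lactate, passed as higher in 9263 (-1.04 ± 0.20, adjusted p = 7.44e-06), but not with libraries CP-3552 to CP-3554 alone (-0.03, adjusted p = 0.945).

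**Figure D4:**
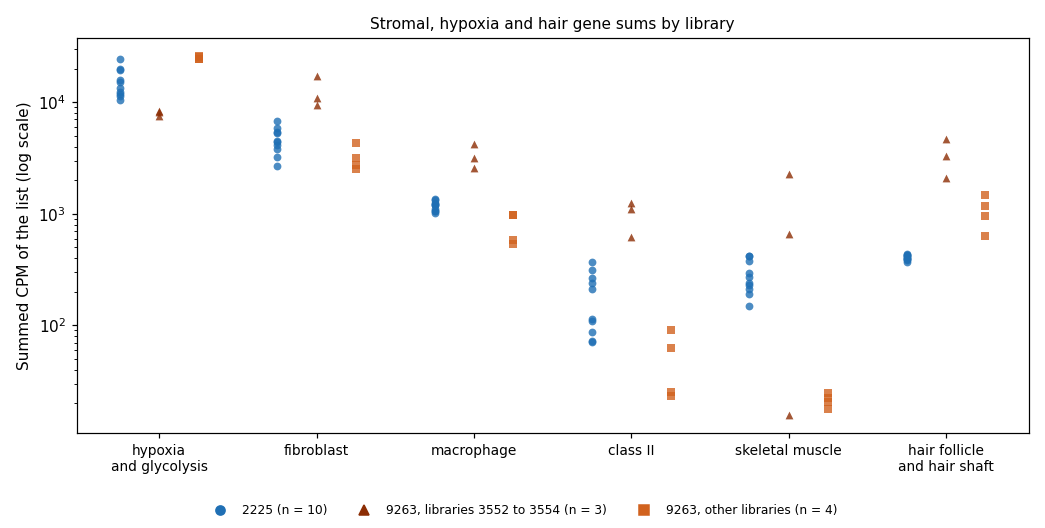
Summed CPM on a log axis of 6 gene lists in each library of 2225 (n = 10), in libraries CP-3552 to CP-3554 of 9263 (n = 3) and in the other libraries of 9263 (n = 4). Libraries CP-3552 to CP-3554 are lowest for hypoxia genes and highest for fibroblast, macrophage, class II and hair genes.

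Cholesterol synthesis genes were mostly higher in 9263, and glutathione genes went both ways. Of 24 cholesterol synthesis genes, 14 were higher in 9263 and 1 in 2225. Hmgcs1, an early enzyme of the pathway, was at 51.4, 79.5 and 114 CPM in 2225 and 130, 176 and 266 CPM in 9263 (log2 difference -1.21 ± 0.17, adjusted p = 4.15e-09). The exception, Hsd17b7, was at 116 to 167 CPM in 2225 and 23.9 to 62.6 CPM in 9263 (1.89 ± 0.19, adjusted p = 6.23e-14) and lies on chr1 among neighbours that were high in 2225 too. Of 23 tested glutathione genes and Nrf2 targets, 6 were higher in 2225 and 9 in 9263, 5 and 5 by at least 2-fold, and without libraries CP-3552 to CP-3554 6 were higher in each model. The NADPH quinone reductase Nqo1 was at 5.06 to 9.56 CPM in 2225 and 34.6 to 79.1 CPM in 9263 (-2.92 ± 0.38, adjusted p = 5.5e-10). Mesenchymal genes were mixed. Tcf4, here the bHLH factor and not the Wnt effector of the same nickname, was at 53.1, 68.3 and 80.5 CPM in 2225 and 383.9, 558 and 813 CPM in 9263 (log2 difference -2.98 ± 0.17, adjusted p = 4.32e-26), N-cadherin from Cdh2 was also higher in 9263 (-3.73 ± 0.34, adjusted p = 1.23e-15), and Vim did not pass (0.37 ± 0.24, adjusted p = 0.197; 0.90, adjusted p = 0.0076 without libraries CP-3552 to CP-3554, and 0.60 without library CP-3553 alone, where it passed). The cartilage collagens Col9a1 and Col2a1 were higher in 2225 (46.6 to 94.2 against 0.207 to 1.42 CPM and 10.8 to 76.5 against 0.447 to 5.97 CPM; log2 differences 6.50 ± 0.34, adjusted p = 2.73e-27 and 3.92 ± 0.63, adjusted p = 1.92e-07, the latter 5.61, adjusted p = 5.53e-06 against libraries CP-3552 to CP-3554 alone).

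**Figure D5:**
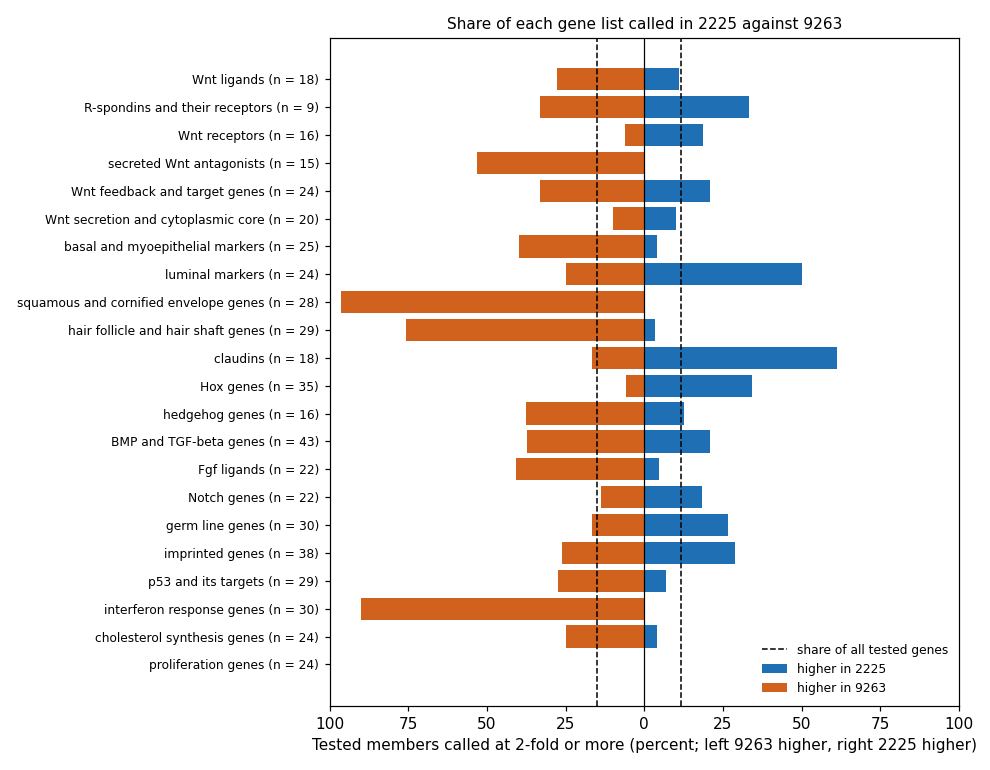
Percent of the tested members of each gene list that passed the adjusted p of 0.05 and differed by at least 2-fold, to the right where higher in 2225 and to the left where higher in 9263, with dashed lines at the shares of all tested genes (11.7% and 15%). The squamous, interferon and hair lists reach farthest to the left, and claudins and luminal markers farthest to the right.

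Differences also came in stretches of neighbouring genes, read as a description with no test. Among 14554 placed genes with at least 1 CPM, 33 stretches of 20 or more consecutive genes had a median log2 difference of at least 1 in size in a window of 20 genes, 11 higher in 2225 and 22 in 9263. On chr1, a stretch of 51 genes (chr1:74284930-79671972, build mm10) and one of 56 genes (chr1:167222883-172122330) had medians of 1.73 and 1.89. In the first, 2225 was 1.87 above the median of the other models and 9263 0.34, and in the second 1.75 and 0.31. The second holds Hsd17b7 and Uap1. Uap1, of amino sugar synthesis, was at 494, 594 and 672 CPM in 2225 and 55.4, 59.7 and 64.8 CPM in 9263 (log2 difference 3.31 ± 0.09, adjusted p = 4.41e-46). Wnt6, Wnt10a and Ihh lie in the first stretch. Axin1 lies in a stretch of 84 genes on chr17 (chr17:24473551-26939569) with a median of 1.25. There 2225 was 0.32 above the other models and 9263 stood at -0.90. Peg3 lies in a stretch of 76 genes on chr7 (chr7:3289080-12931072) with a median of 1.11, with 2225 at 0.38 and 9263 at -0.73.

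In the stretches higher in 9263, the deviation from the other models was on 9263's side in some and on 2225's side in others. A stretch of 104 genes on chr9 (chr9:14353990-27007336), with Dnmt1, had a median difference of -1.10, with 9263 1.32 above the other models and 2225 0.31. One of 90 genes on chr8 (chr8:15011025-35679449), with Nrg1 and Tex15, had -1.16, with 9263 at 0.80 and 2225 at -0.24. The 20 genes from Rab10 on chr12 (chr12:3247428-5416631) had -1.29, with 9263 at -0.01 and 2225 at -0.71. The stretch with the squamous genes of chr3 (chr3:90391388-94786492, 51 genes) had -3.31, and those with type I keratins on chr11 (46 genes) and type II keratins on chr15 (42 genes) had -1.09 and -1.03; these stretches hold families of related genes. Whether any stretch reflects DNA copy number was not tested.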

How the data were processed

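Untreated mouse mammary tumours were profiled by mRNA sequencing. The authors deposited expected counts per gene (47480 genes), which need not be whole (85.55% were), and were rounded here. They also deposited a normalized signal, which was checked to be the count over the 75th percentile of its library times 1000. STAR, SAMtools, Picard, Salmon and build mm10 are named per the submitters' processing notes, which give no versions or roles here. Whether counting used strand is not given in the sources used here, so overlapping genes (such as Ctnnb1 and Ulk4) cannot be told apart.

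All 82 libraries entered 1 fit in edgeR 4.0.16 (R 4.3.3) with a mean per model, TMM scaling and filterByExpr by model (minimum count 10, minimum total 15), which kept 22847 genes and left 69 residual degrees of freedom. Every adjusted p is from edgeR's quasi-likelihood test with Benjamini-Hochberg adjustment over all genes tested, unless limma or DESeq2 is named. Genes passed at an adjusted p of 0.05. Called genes with no overlap between the libraries and at least 5 CPM in the higher model were ranked by log2 difference, and the first 15 in each direction were named. Members of each list with at least 1 CPM were named up to 6 per list, and the Wnt lists were described in full. Some genes that this rule names are not reported here. The members and the 54 gene lists were chosen with earlier results of these data known. The neighbours of Ctnnb1, the genes of the chr1 and chr12 stretches, Csf1r, Adgre1, H2-Aa, Col1a2, Myh4, Vegfa, Slc2a1, Ldha, Mki67, Fzd7 and Lrp6 were named after their values were seen. Alternatives were DESeq2 1.42.0 as a test and for size factors, upper quartile scaling, no filter, the 17 libraries alone, limma 3.58.1 on the log2 of the deposited signal, the library-number run as a block (6 libraries of 2225 and 7 of 9263), and leaving out each library. Fits without libraries CP-3552 to CP-3554 of 9263, and with them as its only libraries, were added after seeing the data. The fitting script was tested on simulated data. Members of families of similar genes (Rhox, Xlr, Sprr and keratin genes) are uncertain, since the counting may split their reads.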

Additional observations from a re-analysis of the deposited data

Results flagged for a closer look

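In 20 of 346 sets of libraries tested (173 genes in each of 2 models, 5.78%), 1 library stood apart from the others of its model by Dixon's criterion on log2 CPM, which chance meets in about 1 of 20 sets. In 2225, the lowest library was far below the rest for Fzd5 (177 CPM in library CP-3055, next 317), Nkd1 (164 CPM in library CP-3843, next 281), Hoxa3 (2.01 CPM in library CP-4011, next 5.18) and Tcf4 (53.1 CPM in library CP-3748, next 65.5). The highest library of 2225 was far above the rest for Sfrp4 (0.891 CPM in library CP-3569, next 0.183), Dkk3 (29.6 CPM in library CP-4011, next 23.4), Igf2 (339 CPM in library CP-3843, next 139) and Nrg1 (23 CPM in library CP-3844, next 15.6). The same held near the limit of counting for Dsg1a (0.105 CPM in library CP-3569), Krt27 (0.21 CPM in library CP-3055), Krtdap (0.06 CPM in library CP-3843), Krt25 and Shh (0.00999 CPM each in library CP-3843, all others at 0) and Rspo3 (0.198 CPM in library CP-3568).

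In 9263, library CP-3058 was highest for Cd44 (402 CPM, next 204) and Rab10 (173 CPM, next 130.0) and lowest for Kremen2 (3.51 CPM, next 12.1). Library CP-3852 was lowest for Bambi (59.8 CPM, next 110) and Nkd2 (108 CPM, next 185), and Sox2 was found in library CP-3853 alone (0.0417 CPM).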

How the results depend on the processing

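Counts of called genes over the whole table stayed within 1.5 times of those reported in all 26 settings, except that 1944 genes instead of 3419 were 2-fold higher in 9263 with the library-number run as a block, on 13 libraries. Leaving out 1 library gave 5012 to 5318 genes higher in 2225 and 5779 to 6282 in 9263, and the 2-fold counts were 2591 to 2788 and 2961 to 3489. The other settings gave 4406 to 5570 and 4578 to 6356 genes, and 2-fold counts of 1944 to 3234 and 1944 to 3625. The share of calls that were higher in 2225 was 45.5%, and 44.4% to 52.6% in the other settings. Of 156 called genes among the 173 described, 130 were called in the same direction in all 26 settings.

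Among the called differences the sign turned in these cases, and the cause was not tested. Without libraries CP-3552 to CP-3554 the log2 difference was 1.77 for Adgre1, 1.84 for Csf1r, 2.52 for H2-Aa, 0.59 for Col1a2, 5.95 for Myh4, 0.68 for Dkk2, 1.015 for Sfrp4 and 1.49 for Wnt9a. With only these libraries of 9263 it was 0.14 for Apc, 0.67 for Pou2af1 and 0.31 for Trp53. With the library-number run as a block it was 0.24 for Adgre1, 0.49 for Csf1r and 0.21 for H2-Aa, and with limma 0.0407, 0.21 and 0.24. Of genes not called over all libraries, Fzd7, Vegfa and Slc2a1 passed as higher in 9263 without these 3 libraries (-0.63, -1.28 and -1.47) and as higher in 2225 against them alone (0.81, 2.44 and 2.00). Lrp6 and Sfrp1 passed against them alone (0.80 and 1.14) and were -0.29 and -0.37 without them, and Vim passed without them (0.90) and was -0.06 against them alone. No paired analysis was possible because the labels give the libraries of the models no shared replicate numbers. Depth limits genes under 1 CPM, where a few counts set the level, and levels near 0 are given as such.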
